A study of Mus musculus with 6 samples.

Results

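Purinergic receptors and the proteins that handle extracellular ATP were followed in primary mouse embryo fibroblasts given a bacterial stimulus with or without a preceding heat shock. The members were 7 genes taken by symbol: P2rx7 as the lead gene, P2rx4, Panx1, Entpd1, Nt5e, Adora1 and Adora2b. All probe sets with 1 of these symbols alone were used. They numbered 14 of the 45101 on the array and covered 5 of the 7 genes, each with a probe set above the signal filter among the 12918 genes tested. Adora1 and Adora2b, receptors for adenosine, were not analysed here, since no probe set in the annotation used was assigned to either. The list was chosen by measured values of these arrays, above all the high P2rx7 signal after heat shock and LPS. Their differences between HS+LPS and the other groups are therefore given as a description with no p-value.

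Outbred ICR mice supplied 2 embryos at day 15.5 of gestation, and each embryo gave 1 culture of fibroblasts. HS+LPS cells were heated to 42 °C for 1 h and then given lipopolysaccharide (LPS, from E. coli 0127:B8) at 1 μg/ml for 4 h, LPS cells received the same LPS without heat, and Control cells stayed at 37 °C with no agent. Both cultures were measured in all 3 groups on 1-colour Affymetrix arrays, 6 arrays in all, and the number of a replicate is the number of its culture. Cells given heat alone were not analysed here, so a difference between HS+LPS and LPS holds heat and its interplay with LPS together. Signals are scaled intensities without a unit. The noise level of an array was set at the brightest of 27 probe sets for Bacillus subtilis genes and lay between 6.0 and 7.67.

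Cells release ATP through channels such as pannexin 1, encoded by Panx1, when they are stressed or damaged. Extracellular ATP opens P2X receptors, cation channels of the cell membrane. P2X4, from P2rx4, opens at low ATP, whereas P2X7, from P2rx7, needs high ATP and, once open, lets potassium leave the cell, a trigger of the NLRP3 inflammasome and of interleukin-1 beta release in macrophages primed with LPS. The ectoenzymes CD39 (Entpd1) and CD73 (Nt5e) then remove the signal, CD39 by cutting ATP and ADP to AMP and CD73 by cutting AMP to adenosine, which acts on receptors such as A1 and A2B (Adora1 and Adora2b).

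The treatments were visible in genes outside the purinergic set. Hspa1a, the heat-inducible Hsp70, averaged 4984 ± 63.1 in HS+LPS, 62.4 ± 8.0 in LPS and 57.9 ± 4.38 in Control (SD, n = 2 cultures each), and the Hsp40 gene Dnajb1 averaged 5604 ± 441 in HS+LPS, 553 ± 8.50 in LPS and 596 ± 7.08 in Control. Cxcl10, an LPS-inducible chemokine, averaged 41.1 ± 7.84 in HS+LPS, 509.6 ± 115 in LPS and 9.54 ± 2.39 in Control, and the chemokine Ccl2 averaged 1770 ± 32.5 in HS+LPS, 4314 ± 463 in LPS and 1379 ± 98.4 in Control. All 10 fibroblast markers lay above noise on all 6 arrays, but their levels were not the same in all of them. Pdgfrb, a receptor for platelet-derived growth factor, fell in HS+LPS, with 883 and 911 in HS+LPS, 1608 and 1549 in LPS and 1554 and 1475 in Control (log2 difference between HS+LPS and LPS -0.81, SE 0.10, limma adjusted p = 0.0277, with the culture as a block 0.000212). Pdgfra, its sister receptor, read 117 and 573 in HS+LPS, 198 and 1309 in LPS and 302 and 1036 in Control, and did not pass for HS+LPS against LPS (limma adjusted p = 0.74) unless the block was used (0.00729). The part of these changes in the differences of the purinergic genes was not tested. The cultures also differed from each other: Lum, which encodes the matrix protein lumican, read 138 in HS+LPS, 188 in LPS and 119 in Control in culture 1, and 1578 in HS+LPS, 1820 in LPS and 1699 in Control in culture 2.

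P2rx7 was the member with the largest difference. Its brightest probe set, 1439787_at, read 238 and 243 in HS+LPS, 10.0 and 8.54 in LPS, and 8.06 and 7.32 in Control (cultures 1 and 2). The HS+LPS arrays stood far above the other 4, which all lay close to the noise level of their array but above it. The log2 difference between HS+LPS and LPS was 4.27 (SE 0.21), a 19.3-fold difference on the log2(intensity + 3.37) scale and 25.9-fold between the plain means. It was 4.17 in culture 1 and 4.37 in culture 2. Between HS+LPS and Control it was 4.46 (SE 0.21), 4.40 and 4.53 in the 2 cultures. Ordered by size, the P2rx7 difference was number 7 of 12918 for HS+LPS against LPS and number 6 for HS+LPS against Control. These comparisons share the HS+LPS arrays, so they are not separate evidence. In RNA from whole cultures, fewer cells of a type and less RNA per cell cannot be told apart.

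LPS alone left P2rx7 near noise. The log2 difference between LPS and Control was 0.19 (SE 0.21, limma adjusted p = 0.999, and 0.742 with the culture as a block), 0.23 in culture 1 and 0.16 in culture 2. The signals of the LPS cultures, 10.0 and 8.54, did not overlap those of the Control cultures, 8.06 and 7.32, but the difference was smaller than its standard error.

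The other P2rx7 probe sets gave the same order for HS+LPS. Probe set 1419853_a_at read 93.5 and 99.7 in HS+LPS, against 3.90 and 6.72 in LPS and 0.876 and 5.02 in Control. All 4 arrays without heat lay under noise there, so the difference is at least 10.0-fold against LPS and at least 9.70-fold against Control, with the noise level in place of the dim signal. Probe set 1422218_at read 59.8 and 64.2 in HS+LPS, against 4.28 and 3.43 in LPS, both under noise, and 8.67 and 10.4 in Control, both above it. Its HS+LPS signal was at least 6.56-fold that in LPS and 5.07-fold that in Control. For LPS against Control the 3 probe sets disagreed in sign, with log2 differences of 0.19, 0.52 and -0.84, and for the last 2 at least 1 of the groups lay under noise.

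**Figure D1:**
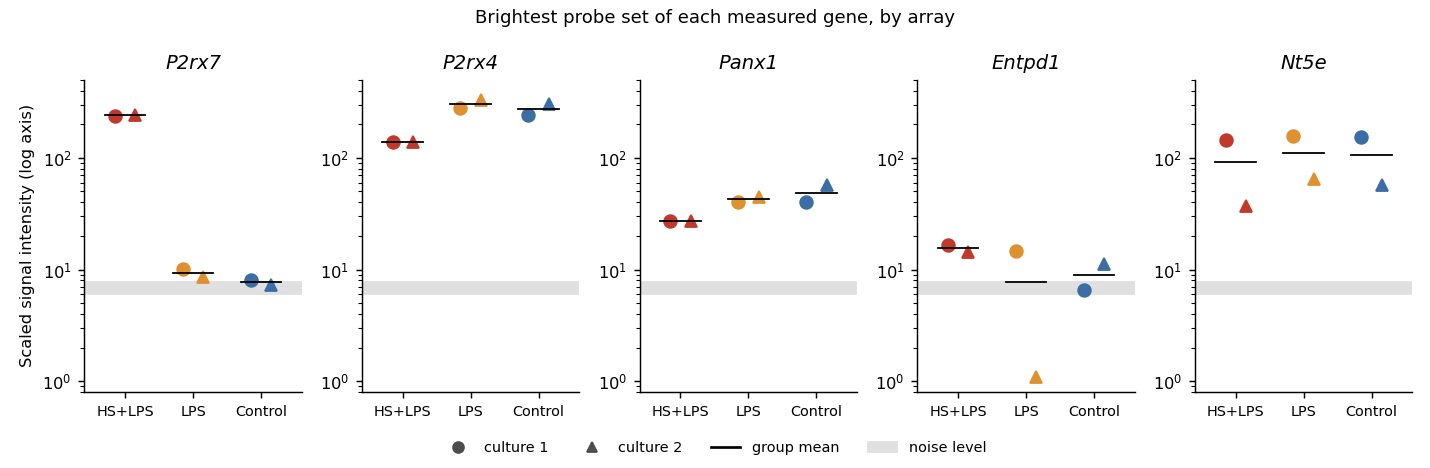
Scaled signal intensity (log axis) of the brightest probe set of each measured gene on the 6 arrays, with HS+LPS on the left, LPS in the middle and Control on the right of each panel. Circles are culture 1, triangles culture 2, lines group means and the grey band the range of the noise level over arrays. P2rx7 reads 238 and 243 in HS+LPS and 7.32 to 10.0 elsewhere, P2rx4 and Panx1 are lowest in HS+LPS, and Nt5e is split by culture.

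The promoter windows of P2rx7 are shown because its signal was far apart between the groups, with those of P2rx4, its neighbour on chromosome 5, and of Panx1, which both read lowest in HS+LPS. They run from 250 bases before to 50 after an annotated start (RefSeq, GRCm38.p6), 5′ to 3′ on the strand of the gene, and RefSeq gives P2rx7 2 starts. Capitals mark matches to the motifs named after the sequences. The P2rx7 windows are chr5:122643677-122643976 and chr5:122650133-122650432, the P2rx4 window is chr5:122707294-122707593, all on the plus strand, and the Panx1 window is chr9:15045429-15045728 on the minus strand.
P2rx7 start 1: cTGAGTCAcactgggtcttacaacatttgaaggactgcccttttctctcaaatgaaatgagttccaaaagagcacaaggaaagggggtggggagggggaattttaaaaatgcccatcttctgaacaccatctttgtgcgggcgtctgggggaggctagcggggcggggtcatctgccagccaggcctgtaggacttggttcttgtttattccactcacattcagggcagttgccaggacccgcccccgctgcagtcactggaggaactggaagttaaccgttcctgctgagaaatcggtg
P2rx7 start 2: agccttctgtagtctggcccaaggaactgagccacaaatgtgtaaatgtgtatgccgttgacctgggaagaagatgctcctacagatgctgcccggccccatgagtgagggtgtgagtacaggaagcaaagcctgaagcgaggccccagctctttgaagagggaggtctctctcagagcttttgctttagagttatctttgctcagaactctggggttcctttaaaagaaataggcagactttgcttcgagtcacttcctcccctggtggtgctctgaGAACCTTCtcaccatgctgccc
P2rx4: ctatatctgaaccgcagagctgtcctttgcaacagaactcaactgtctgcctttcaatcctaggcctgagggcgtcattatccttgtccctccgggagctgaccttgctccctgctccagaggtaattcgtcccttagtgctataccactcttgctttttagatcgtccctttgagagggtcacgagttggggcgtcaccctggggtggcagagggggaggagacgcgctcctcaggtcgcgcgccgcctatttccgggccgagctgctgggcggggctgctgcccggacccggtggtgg
Panx1: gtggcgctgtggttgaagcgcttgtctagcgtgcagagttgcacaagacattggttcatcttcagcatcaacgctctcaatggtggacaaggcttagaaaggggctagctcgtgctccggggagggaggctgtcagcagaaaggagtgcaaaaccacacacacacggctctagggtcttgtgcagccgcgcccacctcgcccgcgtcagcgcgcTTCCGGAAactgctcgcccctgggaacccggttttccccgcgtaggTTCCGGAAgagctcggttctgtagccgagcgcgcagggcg

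The motifs searched on both strands were pairs of the heat shock element unit in both arrangements (GAANNTTC and TTCNNGAA), the AP-1 site TGANTCA, the cyclic AMP response element TGACGTCA and the kappa B site. Of 32851 windows of all genes, 7.86% held GAANNTTC, 8.52% TTCNNGAA, 7.81% TGANTCA, 1.79% TGACGTCA and 8.46% a kappa B site. P2rx7 start 1 held TGAGTCA with its first base at -249 and no heat shock element pair, and start 2 held GAACCTTC from base 29 after the start. The Panx1 window held TTCCGGAA at -36 and again at 11. P2rx4, both Entpd1 windows and Nt5e held no match. Over the 7 windows of the 5 measured genes, 1 held GAANNTTC, 1 TTCNNGAA, 1 TGANTCA, 0 TGACGTCA and 0 a kappa B site. For comparison, the heat-inducible Hsp70 genes Hspa1a and Hspa1b each had GAAGATTC at -104. The Hsp40 gene Dnaja4 had GAACGTTC at -90 and GAACCTTC at -52 in its second window, whereas neither window of Dnajb1 held a heat shock element pair of this form. A match is a run of letters, not a measured binding site, and the data hold no measurement of binding.

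P2rx4, the other ATP-gated channel among the members, had the opposite pattern. Probe set 1425525_a_at read 137 and 138 in HS+LPS, 278 and 331 in LPS, and 240 and 306 in Control. Both HS+LPS arrays lay under all the others, and the LPS and Control arrays overlapped. The log2 difference between HS+LPS and LPS was -1.12 (SE 0.17), 0.46 of the LPS level, with -1.0 in culture 1 and -1.24 in culture 2, and against Control it was -0.96 (SE 0.17). The second bright probe set, 1452527_a_at, read 139.9 and 167 in HS+LPS, 239 and 294 in LPS, and 222 and 313 in Control, a log2 difference of -0.78 between HS+LPS and LPS. The remaining P2rx4 probe sets, 1441772_at and 1446429_at, were each above noise on 2 of 6 arrays and carried no usable level. Between LPS and Control the main P2rx4 difference was 0.16 (SE 0.17, limma adjusted p = 0.999, 0.542 with the block).

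P2rx4 is the next protein-coding gene after P2rx7 along chromosome 5. None of the 5 other genes around this pair passed for HS+LPS against LPS, where 1.34% of all genes were called. With so small a share, none passing among 5 genes says little about them. Ift81, a component of the transport machinery of cilia that precedes P2rx7, read 99.2 and 132 in HS+LPS and 103 and 142 in LPS, a log2 difference of -0.08 (limma adjusted p = 0.907). Atp2a2, the calcium pump of the endoplasmic reticulum, differed by 0.17 (adjusted p = 0.47) and Anapc7, a subunit of the anaphase-promoting complex, by 0.03 (adjusted p = 0.929). On the far side of P2rx4, the kinase gene Camkk2 read 68.6 and 100.3 in HS+LPS and 143 and 93.9 in LPS, so that its cultures disagreed (log2 differences of -1.02 and 0.09, adjusted p = 0.481). Anapc5, of the same complex as Anapc7, differed by 0.03 (adjusted p = 0.942).

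**Figure D2:**
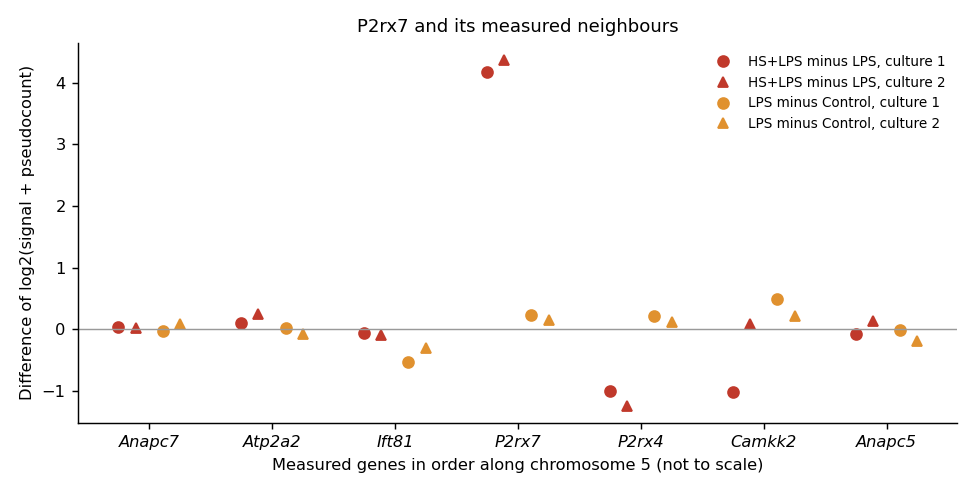
Difference of log2(signal + pseudocount) in each culture for P2rx7 and the 3 nearest measured genes on either side, in order along chromosome 5. Red marks HS+LPS minus LPS and orange LPS minus Control, with circles for culture 1 and triangles for culture 2. In red, P2rx7 stands at 4.17 and 4.37, P2rx4 at -1.0 and -1.24, and the other genes lie near 0 apart from Camkk2 in culture 1. In orange, Ift81 stands at -0.53 and -0.31 and Camkk2 at 0.49 and 0.21 in cultures 1 and 2.

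Panx1, the ATP release channel, was dimmer but above noise on all arrays. Its only probe set, 1416379_at, read 27.0 and 27.3 in HS+LPS, 40.3 and 44.8 in LPS, and 40.6 and 57.1 in Control. Both HS+LPS arrays were again the lowest. The log2 difference between HS+LPS and LPS was -0.59 (SE 0.23), -0.53 and -0.65 in the 2 cultures, and between HS+LPS and Control -0.76 (SE 0.23), -0.54 and -0.98. LPS and Control overlapped, with a difference of -0.17 (SE 0.23, limma adjusted p = 0.999, 0.763 with the block) that was -0.01 in culture 1 and -0.33 in culture 2.

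Of the ectoenzymes, Entpd1 was close to noise in these fibroblasts. Probe set 1423326_at read 16.7 and 14.3 in HS+LPS, 14.5 and 1.09 in LPS, and 6.51 and 11.3 in Control. The HS+LPS signals were both above noise, while 1 LPS and 1 Control array were under it, and the HS+LPS and LPS groups overlapped. The log2 difference of 1.07 (SE 0.67) between HS+LPS and LPS came from culture 2, where it was 1.98 against 0.16 in culture 1. It was 0.07 without LPS replicate 2 and 2.08 without LPS replicate 1. LPS against Control gave -0.43 (SE 0.67, limma adjusted p = 0.999, 0.787 with the block), and 0.57 without LPS replicate 2. The other Entpd1 probe sets were above noise on 0 arrays.

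Nt5e differed more between the cultures than between the treatments. Probe set 1428547_at read 145 and 36.8 in HS+LPS, 158 and 64.6 in LPS, and 153 and 57.3 in Control, with culture 1 given first in each pair. Culture 2 was lower in all 3 groups, averaging 52.9 ± 14.4 against 152 ± 6.49 in culture 1 (SD, n = 3 arrays each), and the ranges did not meet. Probe set 1422974_at gave the same split, with 39.7 and 23.7 in HS+LPS, 61.3 and 30.2 in LPS, and 47.2 and 31.6 in Control. Within each culture HS+LPS was the lowest of the 3 groups on both probe sets. The HS+LPS minus LPS difference on 1428547_at was -0.44 (SE 0.78, with the culture as a block 0.18), -0.12 in culture 1 and -0.76 in culture 2. It ran from -1.38 to 0.51 when 1 array was left out. That step sets 1 culture in a group against both in another, so the range holds the split between the cultures as well. Some fibroblast markers, among them Lum, split the same cultures in the other direction in all 3 groups. Vim, Col1a2 and Pdgfrb did not. The part of these markers in the Nt5e split was not tested. LPS minus Control was 0.10 (SE 0.78, limma adjusted p = 0.999, 0.839 with the block). The third probe set, 1459023_at, was above noise on 1 array. P2rx4 and Panx1 differed the other way and less, with culture 2 higher in all 3 groups and by 0.20 on average on the log2 scale.

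**Figure D3:**
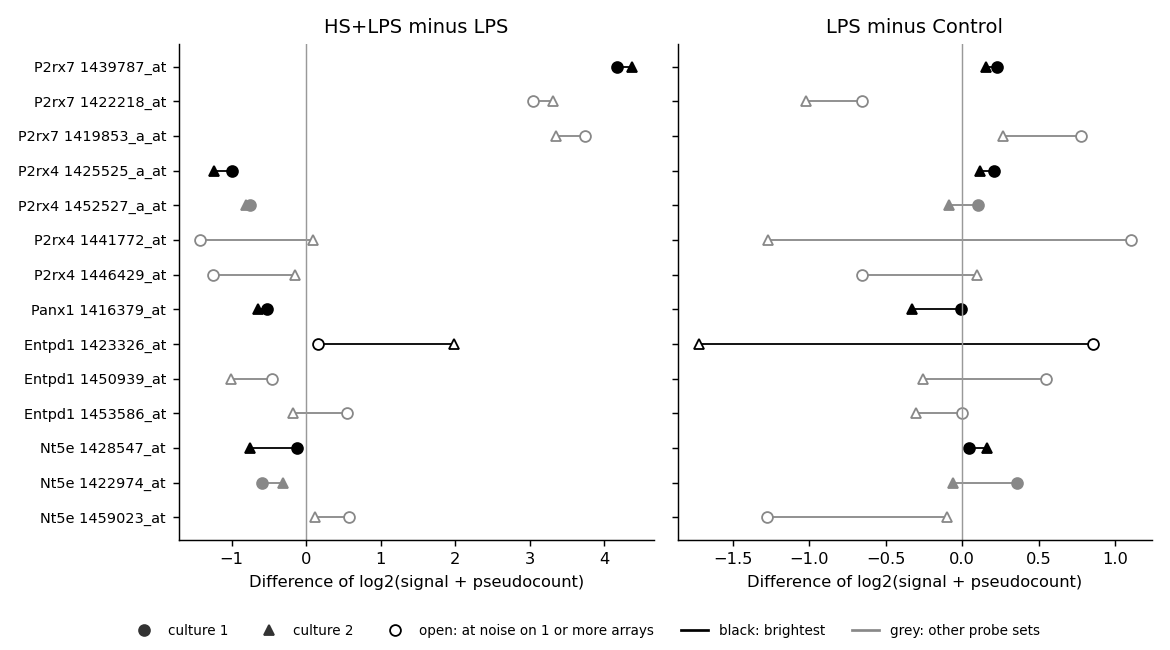
Difference of log2(signal + pseudocount) in each culture for all 14 probe sets of the members, HS+LPS minus LPS on the left and LPS minus Control on the right. Circles are culture 1, triangles culture 2, black the brightest probe set of a gene, grey the others, and open symbols probe sets at or under noise on at least 1 array. The 3 P2rx7 probe sets lie between 3.05 and 4.37 on the left, and the 2 filled P2rx4 probe sets lie between -1.24 and -0.76.

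In the limma fit over all genes, 0 of the 5 measured members passed for LPS against Control, where 0.147% of all genes were called, and 0 did so at an unadjusted p under 0.05. With the block 0 passed as well, against 2.78% of all genes, 2.06% higher and 0.72% lower. For the 2 comparisons with HS+LPS no calls are given for the members, since they were picked with these comparisons known. Over all genes, 1.34% were called for HS+LPS against LPS, 0.511% higher and 0.828% lower. With the block the share was 18.9%, 6.32% higher and 12.6% lower. For HS+LPS against Control 0.178% of all genes were called, 0.17% higher and 0.00774% lower. With the block the share was 17.2%, 5.09% higher and 12.1% lower.

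Macrophages carry much P2X7 and CD39. The summed signal of 8 macrophage markers was 332 and 209 in HS+LPS, 387 and 209.9 in LPS and 417 and 222 in Control, with culture 1 higher in each group. Of these markers 4 of 8 were above noise on all arrays, and Itgam and Fcgr1, both defining, on none. None of the 6 above the filter passed for HS+LPS against LPS, where 1.34% of all genes were called, or 18.9% with the block. The 6 passed with neither fit and did not move one way. Cd68, a lysosomal protein, was higher in HS+LPS than in LPS in both cultures. It read 42.8 and 29.0 in HS+LPS, 33.6 and 21.0 in LPS and 30.5 and 29.1 in Control. Ptprc, the leukocyte marker CD45, read 7.72 and 7.36 in HS+LPS, 25.7 and 9.99 in LPS and 17.7 and 5.62 in Control, and Adgre1 and Tyrobp too were lower in HS+LPS than in LPS in both cultures. Csf1r and Lyz2, which made up most of the sum, differed in sign between the cultures. The 5 epithelial markers summed to 207 and 189.5 in HS+LPS, against 111 and 121 in LPS and 134 and 77.4 in Control, with Cdh1 above noise on none. Among them Krt19, a keratin, read 131 and 71.2 in HS+LPS, 72.4 and 35.9 in LPS and 94.6 and 34.4 in Control (limma adjusted p = 0.505 for HS+LPS against LPS, with the block 0.0109). Krt18, another keratin, read 18.4 and 51.4 in HS+LPS, 8.44 and 14.6 in LPS and 12.7 and 11.8 in Control (adjusted p = 0.281, with the block 0.0464). Krt8 and Epcam did not pass for HS+LPS against LPS, with or without the block. Krt8 read 14.3 and 24.8 in HS+LPS, 1.67 and 17.9 in LPS and 9.62 and 4.70 in Control. Epcam read 37.3 and 38.0 in HS+LPS, 25.8 and 46.9 in LPS and 15.1 and 26.1 in Control. Against LPS it was higher in culture 1 and lower in culture 2. Endothelial markers (6 genes) summed to 67.5 and 102 in HS+LPS, 40.4 and 88.6 in LPS and 57.6 and 72.5 in Control, with Pecam1 and Tie1 above noise on none. The 4 lymphocyte markers with a probe set, of 5 listed, summed to at most 16.1, with Cd3e, Cd3g and Cd2 above noise on none. The part of the macrophage and epithelial markers in the P2rx7 result was not tested.

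A wider list of 47 purinergic, adenosine and inflammasome genes outside the members was examined in the same fit. This list too was chosen with earlier results of these data known, and some of its genes were named after their values were seen. The calls and p-values of its genes, here and below, are therefore a description and not an independent test. Of the 47 genes, 43 had a probe set and 30 were above the filter. For HS+LPS against LPS, 2 of the 30 fell and 0 rose. At an unadjusted p under 0.05, 5 were lower and 0 higher, where 11.8% of all genes were lower and 4.94% higher. The 30 had a median log2 difference of -0.10 against -0.05 over all genes, of which 0.828% fell. With the culture as a block 6 of 30 fell, against 12.6% of all genes. For LPS against Control, 0 passed (median 0.09 against -0.05 over all genes). At an unadjusted p under 0.05, 5 were higher and 0 lower, where 3.17% of all genes were higher and 1.7% lower. With the block 3 rose, against 2.06% of all genes. For HS+LPS against Control, 0 passed (median -0.11 against -0.09 over all genes). At an unadjusted p under 0.05, 1 was higher and 1 lower, where 4.48% of all genes were higher and 11.7% lower. With the block 1, P2ry2, rose, against 5.09% of all genes.

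Both genes that fell for HS+LPS against LPS stood in the inflammasome group of the list. Il1b, which encodes interleukin-1 beta, read 8.76 and 13.6 in HS+LPS, 99.8 and 67.3 in LPS and 15.3 and 15.5 in Control. The LPS arrays stood above all others, and HS+LPS lay just under Control. The log2 difference between HS+LPS and LPS was -2.57 (SE 0.30, limma adjusted p = 0.0248), lower in both cultures. Between LPS and Control it was 2.19 (adjusted p = 0.097, with the block 0.00436).

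Casp4, the mouse caspase-11 that senses intracellular LPS, read 100.1 and 95.5 in HS+LPS, 212 and 226 in LPS and 96.4 and 107 in Control. Its log2 difference between HS+LPS and LPS was -1.14 (SE 0.14, limma adjusted p = 0.0306), and between LPS and Control 1.08 (adjusted p = 0.0953, with the block 0.00163). HS+LPS and Control overlapped. Both calls for HS+LPS against LPS, of Il1b and of Casp4, were lost when any 1 of the 6 arrays was left out. That step lowered the calls over all genes as well, so the loss is not particular to these genes.

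Gsdmd, the pore-forming protein gasdermin D, had the same shape as Casp4. It read 44.5 and 47.5 in HS+LPS, 132 and 139 in LPS and 43.5 and 66.8 in Control, a log2 difference of -1.49 (adjusted p = 0.0501, with the block 0.000845) between HS+LPS and LPS. Nlrp3, the sensor of the inflammasome, read 12.5 and 7.43 in HS+LPS, 37.4 and 30.0 in LPS and 18.0 and 12.5 in Control (adjusted p = 0.102, with the block 0.00766, for HS+LPS against LPS). Nek7, which binds NLRP3, was bright at 691 ± 224 in HS+LPS, 743 ± 171 in LPS and 819 ± 123 in Control (SD, n = 2 each) and did not pass. The remaining inflammasome genes that were tested did not follow. The adaptor gene Pycard read 13.2 and 37.9 in HS+LPS, 4.02 and 30.2 in LPS and 15.9 and 43.6 in Control. It was higher in HS+LPS than in LPS in both cultures (adjusted p = 0.735, with the block 0.135). Il18, encoding interleukin-18, differed by 0.05 between HS+LPS and LPS (adjusted p = 0.958). Il1a and Casp1, also on the list, were below the filter and not tested. Il1a read 0.562 and 6.84 in HS+LPS, 14.6 and 15.0 in LPS and 3.34 and 1.47 in Control. It was above noise on the LPS arrays alone, so its signals were highest in LPS, as for Il1b. Casp1 was above noise on 1 array. Of the 7 inflammasome genes tested, 5 were lower and 2 higher in HS+LPS than in LPS. Over all 12918 genes 7188 were lower and 5730 higher.

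Receptors other than the members did not pass in the fit without the block. P2ry6, a receptor for UDP, read 103 and 26.4 in HS+LPS, 158 and 80.9 in LPS and 125 and 55.6 in Control, higher in culture 1 throughout. Its log2 difference between HS+LPS and LPS was -1.05 (adjusted p = 0.514, with the block 0.0106). P2ry2, a receptor for ATP and UTP, read 38.5 and 35.4 in HS+LPS, 38.6 and 26.3 in LPS and 15.0 and 18.2 in Control. HS+LPS lay above Control in both cultures (log2 difference 1.02, adjusted p = 0.151, with the block 0.028). The P2X receptor P2rx5 averaged 28.7 ± 7.21 in HS+LPS, 26.8 ± 0.491 in LPS and 34.3 ± 5.27 in Control, and P2rx6 averaged 10.2 ± 0.306 in HS+LPS, 10.1 ± 6.02 in LPS and 14.3 ± 7.31 in Control. Adora3, the adenosine receptor above the filter, read 5.86 to 12 over the 6 arrays, at or near noise.

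No gene of ATP release, ATP removal or adenosine handling outside the members passed without the block, and Pnp fell with it for HS+LPS against LPS. Gja1, whose product connexin 43 forms channels that can pass ATP, was bright at 2589 ± 163 in HS+LPS, 2597 ± 22.2 in LPS and 2461 ± 359 in Control (SD, n = 2 each). Lrrc8a, a subunit of volume-regulated anion channels, averaged 140.05 ± 11.4 in HS+LPS, 168 ± 6.62 in LPS and 144 ± 11.1 in Control. Of 7 ectonucleotidases tested 0 passed in any comparison, with or without the block. Over all genes the share called was 0.147% to 1.34% without the block and 2.78% to 18.9% with it. The brightest were Cant1, a calcium-activated nucleotidase, at 161 ± 19.3 in HS+LPS, 194 ± 9.22 in LPS and 201 ± 5.00 in Control, and Entpd5 at 85.7 ± 1.69 in HS+LPS, 80.7 ± 7.58 in LPS and 79.6 ± 11.6 in Control. Entpd7, a nucleotidase of internal membranes, read 34.1 and 33.3 in HS+LPS, 45.2 and 50.5 in LPS and 57.0 and 47.8 in Control (log2 difference between HS+LPS and Control -0.58, adjusted p = 0.23, with the block 0.0721). Adk, which phosphorylates adenosine, averaged 1195 ± 57.0 in HS+LPS, 1133 ± 99.3 in LPS and 1213 ± 105 in Control. Pnp, which splits inosine, averaged 709 ± 182 in HS+LPS, 1094 ± 136 in LPS and 861 ± 89.4 in Control (log2 difference between HS+LPS and LPS -0.64, adjusted p = 0.204, with the block 0.00231).

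**Figure D4:**
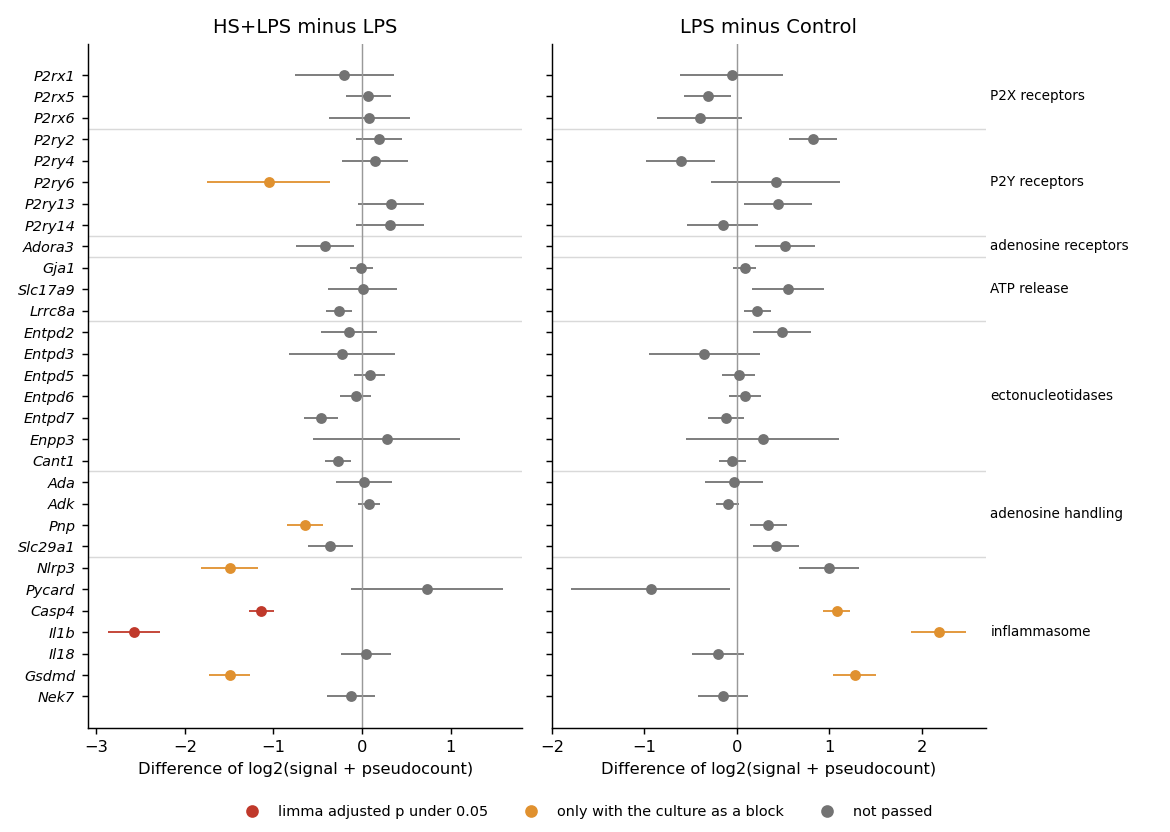
Difference of log2(signal + pseudocount) with its SE from the limma fit (n = 2 cultures per group) for the 30 tested purinergic, adenosine and inflammasome genes outside the members, HS+LPS minus LPS on the left and LPS minus Control on the right. Red points passed, orange points passed only with the culture as a block and grey points did not pass. Il1b and Casp4 are the red points on the left, and outside the inflammasome group P2ry6 lies lowest there at -1.05.

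The genes whose pattern was most like that of P2rx7 were found by the root mean square difference over the 6 arrays of log2 values, after the Control mean of each gene was subtracted. The nearest was Hspa1b, an inducible Hsp70 so alike in sequence to Hspa1a that its probe set may detect both, at 0.29 on the log2 scale, with 4530 and 4585 in HS+LPS, 253 and 331 in LPS and 233 and 292 in Control. Dnaja4, an Hsp40 co-chaperone, followed at 0.47, with 3604 and 3545 in HS+LPS, 129 and 91.1 in LPS and 106 and 78.4 in Control. Fosb, an AP-1 subunit, followed at 0.54, with 84.4 and 190 in HS+LPS and at most 8.45 elsewhere. Sprr1a, an epidermal envelope gene, stood at 0.55 with 165 and 237 in HS+LPS and at most 18.9 elsewhere, and Gm11563 at 0.58 with 62.5 and 80.4 in HS+LPS and at most 3.41, under noise, elsewhere. The measure rests on 6 arrays of which 2 carry nearly all the difference, so any gene as high in HS+LPS alone comes out as alike.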

How the data were processed

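Values came from 1 table of 6 arrays (1-colour Affymetrix GeneChip for the mouse, per the labels). The deposited values are linear signal intensities, and the trimmed mean of each array, with 2% taken off at each end, was 100.001; the software behind them is not given in the sources used here, and the values were used as deposited. Scaling of this kind hides a difference in total mRNA. Genes were named through the platform annotation, and control probe sets were left out of the tests.

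Signals were analysed as log2(intensity + 3.37), the pseudocount being the 25th percentile of all values, which understates folds of dim genes. A filter dropped the probe sets whose mean log2 signal fell below the 40th percentile, and the brightest remaining probe set stood for its gene. The 3 groups entered 1 limma fit (lmFit, then eBayes with its trend option, 3 residual degrees of freedom, with limma 3.58.1 under R 4.3.3) with Benjamini-Hochberg adjustment over 12918 genes and a threshold of 0.05. The fit was tested on simulated data with independent noise and no culture effect. That setting differs from these arrays, which share cultures, so it does not test the fit under pairing. Only 2 arrays per group limit the precision.

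The culture numbers pair the arrays, since the labels tie each number to a single embryo. Across genes, the deviations of same-numbered arrays from their groups had correlations of 0.62 (LPS and Control), 0.57 (HS+LPS and Control) and 0.54 (HS+LPS and LPS). The culture as a block was an alternative, as were other pseudocounts, no filter, median centring, quantile normalization, the mean of all probe sets of a gene and leaving out each array.

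The members and lists were chosen with earlier results of these data known. Genes were named by rule: all members and their probe sets, list genes that passed, the 2 brightest list genes of each role, 4 treatment checks, the 3 nearest measured genes on each side of P2rx7 and the 5 genes most like it. Gsdmd, Nlrp3, Pycard, Il18, Il1a, Casp1, Entpd7 and the marker genes named singly other than Pdgfrb were added after their values were seen.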

Additional observations from a re-analysis of the deposited data

How the results depend on the processing

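The P2rx7 difference between HS+LPS and LPS (4.27) stayed above 3 on the log2 scale under all 13 alternatives. It was 4.56 with pseudocount 1, 3.34 with pseudocount 16, 3.67 with the mean of all its probe sets and 4.19 to 4.36 with 1 array left out. Against Control (4.46) it was 4.80, 3.44 and 3.62 under the same settings and 4.42 to 4.51 with 1 array left out. Under the same 13 alternatives the differences of P2rx4, Panx1 and Entpd1 between HS+LPS and either other group kept their sign. Those of Entpd1 went down to 0.07 against LPS and 0.03 against Control, so their size was not stable. With 1 array left out those of Nt5e ran from -1.38 to 0.51 against LPS and from -1.28 to 0.61 against Control. Leaving out 1 array breaks the pairing, so the Nt5e ranges given here hold the split between the cultures as well. Within cultures 1 and 2 the Nt5e differences were -0.12 and -0.76 against LPS, and -0.07 and -0.59 against Control. The small differences between LPS and Control changed sign under some settings, none past the threshold. With the mean of all probe sets they were -0.041 for P2rx7, -0.047 for P2rx4 and -0.15 for Nt5e, and with 1 array left out they ran from -0.011 to 0.33 for P2rx4, -0.40 to 0.060 for Panx1, -1.43 to 0.57 for Entpd1 and -0.58 to 0.79 for Nt5e. For P2rx7 that range was 0.11 to 0.28.

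The replicate block, the pairing of arrays by culture, raised the calls on the list outside the members to 3 higher for LPS against Control (0 without it), 6 lower for HS+LPS against LPS (2 without it) and 1 higher for HS+LPS against Control (0 without it). For HS+LPS against LPS median centring left 1 of the 2 lower calls, and leaving out any 1 array left 0. Over all genes the block called 359 for LPS against Control (19 without it), 2443 for HS+LPS against LPS (173) and 2219 for HS+LPS against Control (23). Without 1 array these counts were 0 to 4, 8 to 77 and 8 to 14. For HS+LPS against Control, pseudocount 16 gave 58 calls and median centring 59. With 2 arrays per group, 1 fewer leaves a single array in a group, whose spread is taken to equal that of the others. Signals near noise, those of Entpd1 and of P2rx7 without heat, limit any fold.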
